A study of Homo sapiens with 22 samples.

Results

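The genes described here are 50 genes of the extracellular matrix and its remodelling, chosen by name: 6 fibrillar collagens, 11 other collagens, 11 laminins and basement membrane linkers, 8 other matrix proteins, 7 enzymes that modify or crosslink collagen, and 7 metalloproteinases and inhibitors. The count table held 49 of them among 37908 genes, and TIMP3 was not analysed here. RNA-seq was done in H1299, an established human lung cancer line, here carrying a short hairpin RNA against BRCA2 that doxycycline (DOX) switches on. Cultures grown without DOX are the BRCA2-proficient cells, and those kept for 3 days in DOX at 2 µg/mL are the BRCA2-deficient cells. Each was transfected with a control siRNA or with an siRNA against β-catenin (siβ-catenin, targeting CTNNB1), and was left without drug or given the GSK3 inhibitor LY2090314 (GSK3i) at 250 nM for 24 h. The 22 libraries formed 8 groups. The BRCA2-proficient groups without GSK3i had 2 libraries each, numbered 2 and 3, and the other groups had 3 each. All cells carried the hairpin, and no culture had DOX without it, so DOX and BRCA2 depletion cannot be told apart.

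The extracellular matrix is the protein meshwork that cells secrete around themselves. Fibrillar collagens form its cables, laminins with nidogen, perlecan and agrin form the sheet-like basement membrane, and lysyl oxidases crosslink the fibres. Metalloproteinases cut matrix proteins, and their tissue inhibitors (TIMPs) hold them back. Carcinoma cells make part of this meshwork themselves, although most fibrillar collagen in a tumour comes from fibroblasts. GSK3 marks β-catenin for degradation, and β-catenin that escapes it acts with TCF/LEF factors on WNT target genes.

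Library totals ran from 18938266 to 29280122 counts. BRCA2 had 513.6 to 1111 normalised counts (counts divided by DESeq2 size factors) in the 10 BRCA2-proficient libraries and 71.4 to 225.3 in the 12 BRCA2-deficient ones. CTNNB1 had 5206 to 8669 with control siRNA and 976.8 to 2217 with siβ-catenin. The mesenchymal marker VIM (12636 to 35307 normalised counts) and the keratins KRT8 (2037 to 8200) and KRT18 (5068 to 12950) were abundant in each library, and the epithelial marker EPCAM had 1 to 24 counts. The fibroblast markers THY1 and LUM had at most 1 count in any library, and the endothelial marker CDH5 and the leukocyte marker PTPRC at most 3 and 2.

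BRCA2-proficient siβ-catenin libraries stood apart from what their labels say. The response to GSK3i was placed on a scale from 0, the mean of untreated libraries of the same BRCA2 status, to 1, the mean of their GSK3i libraries, over 3027 genes called in the same direction by GSK3i in both backgrounds, the matrix genes left out. The BRCA2-proficient library labelled GSK3i with siβ-catenin, replicate 2, stood at 0.01, while the other libraries with GSK3i and siβ-catenin stood between 0.66 and 0.77. The BRCA2-proficient libraries labelled siβ-catenin without GSK3i stood at 0.74 (replicate 2) and 0.3 (replicate 3), while those of BRCA2-deficient cells stood between -0.1 and 0.1. On this scale each of the 2 libraries numbered 2 thus lay within the range of BRCA2-deficient libraries with the other's treatment. Single genes did not all do so. In siβ-catenin replicate 2 the WNT target AXIN2 had 67.2 normalised counts, near replicate 3 (65). BRCA2-deficient libraries with GSK3i and siβ-catenin had 117.5 to 227.1. PDCD4, low with GSK3i, had 290.9 against their 141.6 to 156.2. YPEL2, also low with GSK3i, had 35.3, within their 31.6 to 44.3. Whether the 2 libraries numbered 2 were exchanged was not tested, and their labels were kept. Each comparison that uses these groups is therefore given also without both libraries numbered 2.

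Promoter sequence is shown for 3 genes on which the results below turn: COL13A1 and LAMB2 because they fell with GSK3i and their promoters hold the TCF/LEF core TCAAAG, and LOX because it had the largest fall in BRCA2-deficient cells and its promoter holds no such core. Each is the RefSeq window from 250 bases before to 50 bases after the gene start (GRCh38.p14, strand of the gene, 5′ to 3′), in lower case with the core in capitals where present. The windows are chr10:69801656-69801955 (+) for COL13A1, chr3:49133001-49133300 (-) for LAMB2 and chr5:122078210-122078509 (-) for LOX.
COL13A1: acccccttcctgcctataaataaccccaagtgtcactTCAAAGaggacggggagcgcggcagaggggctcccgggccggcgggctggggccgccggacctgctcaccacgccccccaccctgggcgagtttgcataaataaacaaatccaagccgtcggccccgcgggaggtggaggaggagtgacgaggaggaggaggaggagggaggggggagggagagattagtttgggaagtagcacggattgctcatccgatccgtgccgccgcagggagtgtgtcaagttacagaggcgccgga
LAMB2: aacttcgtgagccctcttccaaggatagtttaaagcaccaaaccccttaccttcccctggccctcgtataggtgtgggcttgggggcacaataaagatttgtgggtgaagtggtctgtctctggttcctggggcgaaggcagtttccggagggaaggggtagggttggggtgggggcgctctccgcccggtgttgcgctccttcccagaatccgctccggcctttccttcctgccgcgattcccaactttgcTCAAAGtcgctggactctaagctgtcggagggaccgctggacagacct
LOX: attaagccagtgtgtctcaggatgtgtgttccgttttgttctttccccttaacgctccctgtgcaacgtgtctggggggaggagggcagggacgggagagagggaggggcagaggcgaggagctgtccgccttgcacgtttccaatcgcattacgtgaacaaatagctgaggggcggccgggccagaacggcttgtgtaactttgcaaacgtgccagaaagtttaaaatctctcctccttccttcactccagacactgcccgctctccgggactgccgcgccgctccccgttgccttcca
The core was searched on both strands. RefSeq promoters were at hand for 35 matrix genes, and 4 of them (LAMB2, COL13A1, COL4A1 and COL4A2, 11.4%) held it, beside 13.1% of all 27305 promoters. COL4A1 and COL4A2 were below the count filter used below. Of the 31 genes that passed it, 2 held the core (6.45%). Both were among the 11 of these that fell with GSK3i in both backgrounds (18.2%). The AP-1 site TGANTCA, searched the same way, stood in 1 of the 35 (LAMA3, 2.86%) and in 7.76% of all promoters. These matches are letters in a window and say nothing of a factor bound there.

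In length-corrected terms (FPKM over the union of annotated exons), TIMP1, an inhibitor of metalloproteinases, was the most abundant of the matrix genes, with a mean of 135 FPKM over the 22 libraries. The type VI collagen chains COL6A2 and COL6A1 (67.1 and 49.1 FPKM), the lysine hydroxylase PLOD1 (50.4), the lysyl oxidase LOXL2 (50) and TIMP2 (44.7) followed. The fibrillar collagens tested among the 50 genes were scarce: COL27A1 averaged 1.69 FPKM, COL1A1 0.79 and COL5A2 0.335. COL1A2, which joins COL1A1 in the type I collagen helix, had at most 3.14 normalised counts in any library, and COL3A1 at most 5. COL5A1, the type IV collagen chains COL4A1 and COL4A2, COL6A3 and LAMA1 were also below the count filter. That left 42 genes tested in each comparison and 7 not tested.

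**Figure D1:**
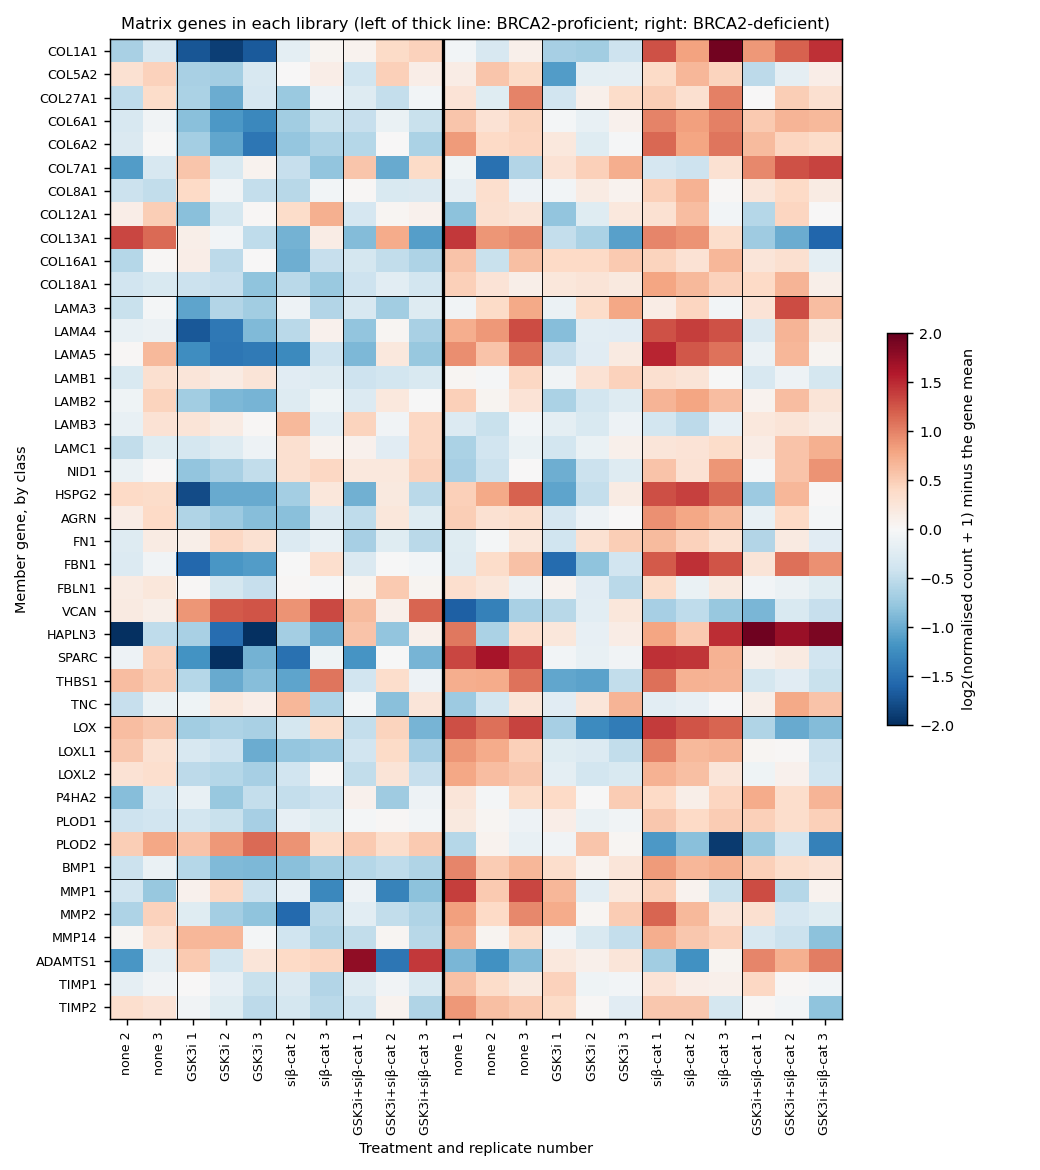
Heat map of the 42 tested matrix genes (rows, by class) in the 22 libraries (columns, by group and replicate number), as log2(normalised count + 1) minus the mean of the gene over all libraries. Most basement membrane genes and lysyl oxidases are low in the GSK3i columns with control siRNA.

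GSK3i lowered matrix genes in both backgrounds. In BRCA2-proficient cells 22 of 42 fell and 3 rose, against 14.2% and 11.8% of all genes tested. In BRCA2-deficient cells 16 fell and 3 rose, against 13.8% and 11.6%. A gene is said to rise or fall when its adjusted p (DESeq2 Wald test, Benjamini-Hochberg over all genes tested) was below 0.05 and its log2 fold change beyond 0.5, and values are given as log2 fold change ± SE. The libraries of a group came from separate experiments, and p measures only the spread between them. The median log2 fold change of the matrix genes was -0.57 and -0.38, beside 0 and 0.02 for all genes. These comparisons share no library. The 15 genes that fell in both, 15 of 22 and 15 of 16, were COL6A2, COL13A1, LAMA4, LAMA5, LAMB2, HSPG2, AGRN, FBN1, SPARC, THBS1, LOX, LOXL1, LOXL2, BMP1 and TIMP2. The 3 that rose in both, 3 of 3 each time, were COL7A1, VCAN and ADAMTS1. Outside the matrix genes, 3027 genes were called in the same direction in both backgrounds, of 16771 and 16863 genes tested. Such agreement was therefore common and not particular to matrix genes. In BRCA2-deficient cells COL6A2, AGRN, BMP1, TIMP2 and VCAN each lost their call in at least 1 fit that left out a library. In BRCA2-proficient cells LAMA4, BMP1, TIMP2, COL7A1 and ADAMTS1 did so, where some of these fits left 1 untreated library. The 3 genes that rose in both are all among those that lost a call.

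In bulk RNA, fewer cells expressing a gene and less RNA per cell cannot be told apart. Of the fibroblast marker list, 2 of 3 tested genes fell in each background, PDGFRA (-3.93 ± 0.46 and -2.91 ± 0.38) and PDGFRB (-2.22 ± 0.77 and -2.37 ± 0.64), while DCN gave 0.03 ± 0.52 and -0.06 ± 0.45. PDGFRA ranged from 6.77 to 176.1 normalised counts over all libraries, and the defining markers THY1 and LUM were at 0 or 1 count. Of the keratin list, 2 of 3 fell with GSK3i in the BRCA2-proficient background and 3 of 4 in the BRCA2-deficient one, with KRT8 at -1.15 ± 0.17 and -1.31 ± 0.24. The part of these markers in the result was not tested.

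**Figure D2:**
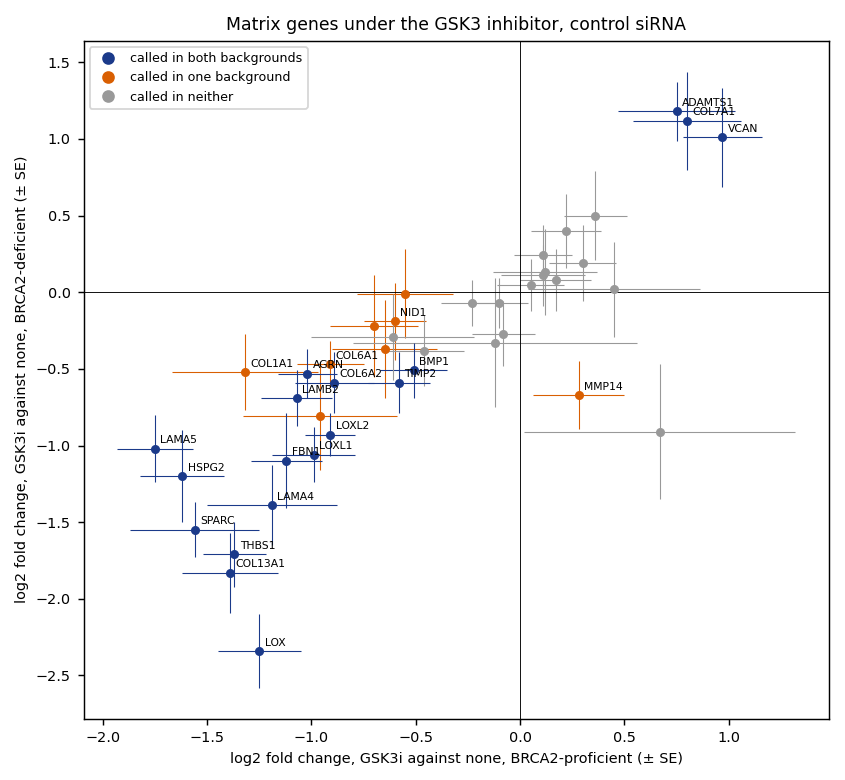
Log2 fold change of the 42 tested matrix genes with GSK3i against none under control siRNA, in BRCA2-proficient cells (x axis) and BRCA2-deficient cells (y axis), with SE bars. LOX lies lowest on the y axis, at -2.34, and VCAN, COL7A1 and ADAMTS1 lie at the upper right.

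Among laminins and basement membrane linkers, 7 of 10 fell in BRCA2-proficient cells, as did 5 of 10 in BRCA2-deficient cells, and none was called higher in either. HSPG2 encodes perlecan, the large heparan sulphate proteoglycan of basement membranes. It had 11020 and 10801 normalised counts in untreated BRCA2-proficient libraries and 2420, 4180 and 4165 with GSK3i. The BRCA2-deficient libraries had 11658, 14200 and 18908 without and 4041, 5986 and 9427 with GSK3i. The groups did not overlap in either background, and HSPG2 fell in both (-1.62 ± 0.2, adjusted p = 2.74e-14 and -1.2 ± 0.3, adjusted p = 0.000616). Such separation was common: with GSK3i 61.4% of all genes tested did not overlap in BRCA2-proficient cells and 43% in BRCA2-deficient cells. For the matrix genes these shares were 61.9% and 52.4%. HSPG2 shares 11.7% of its exon length with LDLRAD2 on the other strand, a gene with 158 counts in all.

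LAMA5, the laminin α5 chain (chromosome 20, 60883011 to 60942368, GRCh37, as are all gene positions below), had 2004 and 3071 normalised counts untreated and 833.9, 721.4 and 738.6 with GSK3i in BRCA2-proficient cells. BRCA2-deficient libraries had 3753, 2907 and 4165 untreated and 1430, 1688 and 2235 with GSK3i. It fell in both without overlap (-1.75 ± 0.18, adjusted p = 1.11e-19 and -1.02 ± 0.22, adjusted p = 6.56e-05). LAMA5 shares 1.71% of its exon length with ADRM1 on the other strand (60321 counts in all, against 54637 for LAMA5). AGRN, the basement membrane proteoglycan agrin, went from 9444 and 11199 to 5614, 5134 and 4685 in BRCA2-proficient cells (-1.02 ± 0.14, adjusted p = 8.54e-12) and from 11979, 10511 and 10847 to 6744, 7882 and 8521 in BRCA2-deficient cells (-0.53 ± 0.16, adjusted p = 0.00416). LAMB2, the laminin β2 chain whose promoter is printed above, went from 3094 and 4469 to 2013, 1752 and 1712 (-1.07 ± 0.17, adjusted p = 6.12e-09) and from 4560, 3415 and 3971 to 2103, 2543 and 2743 (-0.69 ± 0.18, adjusted p = 0.00116). Neither gene had overlapping groups. LAMB1, LAMB3 and LAMC1, the other β chains and the γ1 chain, were called in neither background, with log2 fold changes between 0.05 and 0.24.

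The lysyl oxidase LOX (chromosome 5, 121398890 to 121414108) oxidises lysines of collagen and elastin so that they crosslink. It had 368 and 350.2 normalised counts untreated and 147.9, 155.9 and 153.4 with GSK3i in BRCA2-proficient cells, and 591.5, 517.7 and 615 against 152.4, 99.9 and 90.3 in BRCA2-deficient cells. The groups were far apart in both, and the fall in BRCA2-deficient cells was the largest of the 42 genes there (-1.25 ± 0.2, adjusted p = 7.75e-09 and -2.34 ± 0.24, adjusted p = 2.62e-20). The difference between backgrounds was -1.11 ± 0.28, adjusted p = 0.126, and -1.06, adjusted p = 0.0101 with the replicate numbers as a block. LOX shares 2.47% of its exon length with SRFBP1 on the other strand (12217 counts in all, against 6728 for LOX).

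LOXL1, a lysyl oxidase of elastic fibres, went from 1205 and 1016 to 661.5, 617.8 and 414.9 (-0.99 ± 0.2, adjusted p = 7.61e-06) and from 1529, 1390 and 1155 to 695.3, 681.8 and 585.6 (-1.06 ± 0.18, adjusted p = 7.53e-08). It shares 9.21% of its exon length with its antisense gene LOXL1-AS1. LOXL2 went from 7973 and 8267 to 4550, 4418 and 4137 (-0.91 ± 0.12, adjusted p = 2.81e-12) and from 11158, 10088 and 9538 to 5707, 5101 and 5316 (-0.93 ± 0.14, adjusted p = 1.37e-09). Treated and untreated libraries of these genes were separate in both backgrounds.

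BMP1, the proteinase that trims the C-terminal ends of procollagens and activates LOX, had 1330 and 1637 normalised counts untreated and 1219, 972.8 and 966.3 with GSK3i in BRCA2-proficient cells. The BRCA2-deficient values were 3551, 2556 and 2852 against 2301, 1883 and 2121. It had the smallest of the called falls in each background (-0.51 ± 0.16, adjusted p = 0.00777 and -0.51 ± 0.18, adjusted p = 0.0235). With the replicate numbers as a block the second value was -0.5, adjusted p = 8.04e-07, short of the size criterion. The collagen hydroxylases P4HA2, PLOD1 and PLOD2 were called in neither background, with log2 fold changes between -0.1 and 0.4.

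COL13A1, a transmembrane collagen, had 380.8 and 331.2 normalised counts untreated and 163.1, 143.4 and 104.9 with GSK3i in BRCA2-proficient cells. The BRCA2-deficient libraries gave 401.1, 276.2 and 289.6 against 107.7, 96.4 and 69.7. It fell in both without overlap (-1.39 ± 0.23, adjusted p = 3.5e-08 and -1.83 ± 0.26, adjusted p = 1.14e-10). COL6A2 (chromosome 21, 47518026 to 47552762), a chain of the beaded type VI collagen, had 6021 and 7296 against 4597, 3577 and 2686 and 13322, 9648 and 9938 against 8488, 6203 and 7192, and fell in both (-0.89 ± 0.19, adjusted p = 3.54e-05 and -0.59 ± 0.2, adjusted p = 0.0145). Its partner COL6A1 (chromosome 21, 47401684 to 47424964) went from 4540 and 5363 to 3160, 2535 and 2307 in BRCA2-proficient cells (-0.91 ± 0.16, adjusted p = 2.13e-07). In BRCA2-deficient cells COL6A1 had 8304, 6905 and 7726 against 5478, 5069 and 5991 (-0.47 ± 0.15, adjusted p = 0.00945), which passed the test but not the size criterion.

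COL1A1 (chromosome 17, 48261462 to 48278993), the main chain of type I collagen, had 81.3 and 102.8 normalised counts untreated and 38.4, 34.1 and 39.5 with GSK3i in BRCA2-proficient cells and fell there (-1.32 ± 0.35, adjusted p = 0.00102). In BRCA2-deficient cells it had 123.8, 102.9 and 137.1 against 80.2, 78.7 and 95.7 (-0.52 ± 0.25, adjusted p = 0.112). The groups did not overlap in either background, and the difference between backgrounds did not pass (0.79 ± 0.35, adjusted p = 1). The other fibrillar chains tested fell in BRCA2-proficient cells. COL27A1 had 357.6 and 658.6 against 328.4, 254.9 and 402.5, with overlapping groups (-0.65 ± 0.25, adjusted p = 0.0343), and in BRCA2-deficient cells 615.3, 428.9 and 1019 against 390.6, 544.7 and 658 (-0.37 ± 0.32, adjusted p = 0.414). COL5A2 had 66.2 and 74.2 against 33.8, 33 and 42.8 (-0.96 ± 0.37, adjusted p = 0.0334), and in BRCA2-deficient cells 59.5, 79.1 and 70.6 against 24.1, 46.9 and 47.4 (-0.81 ± 0.35, adjusted p = 0.0694). With the replicate block COL5A2 was called in BRCA2-deficient cells (-0.86, adjusted p = 0.0387), as was TNC, the matricellular tenascin C (0.51, adjusted p = 1.67e-08). In BRCA2-proficient cells the block left COL1A1 (-1.33, adjusted p = 0.0581) and COL5A2 (-0.91, adjusted p = 0.274) without a call.

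COL7A1, the collagen of anchoring fibrils, rose with GSK3i, from 257.7 and 449.2 to 829.2, 451.7 and 586.3 normalised counts in BRCA2-proficient cells (0.8 ± 0.26, adjusted p = 0.00859) and from 528.4, 198.2 and 373.5 to 683.9, 779 and 928 in BRCA2-deficient cells (1.12 ± 0.32, adjusted p = 0.00279). VCAN, the chondroitin sulphate proteoglycan versican and a known target of β-catenin with TCF, rose from 290.2 and 278.9 to 471.7, 601.9 and 616.8 (0.97 ± 0.19, adjusted p = 1.98e-06) and from 82.1, 99.6 and 162.7 to 174.1, 220.2 and 299.5 (1.01 ± 0.32, adjusted p = 0.00835). Neither gene had overlapping groups. ADAMTS1, a proteinase that cuts versican, had 160.2 and 313.1 against 514.8, 277.6 and 422.8, with overlap (0.75 ± 0.28, adjusted p = 0.0261), and 189.2, 154.9 and 196.5 against 413.5, 383.8 and 426.5, without overlap (1.18 ± 0.19, adjusted p = 1.84e-08).

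SPARC, a collagen-binding matricellular protein, had 182.3 and 271.2 normalised counts untreated and 85, 46.6 and 101.5 with GSK3i in BRCA2-proficient cells, and 496.3, 617.4 and 506.5 against 190.2, 177.7 and 186.9 in BRCA2-deficient cells. Its falls were -1.56 ± 0.31, adjusted p = 7.17e-06 and -1.55 ± 0.18, adjusted p = 4.14e-15. THBS1, thrombospondin 1, an activator of latent TGF-β, went from 4608 and 4257 to 2028, 1493 and 1664 (-1.37 ± 0.15, adjusted p = 1.9e-17) and from 4996, 5015 and 6401 to 1462, 1432 and 2130 (-1.71 ± 0.21, adjusted p = 1.26e-13). FBN1, the microfibril protein fibrillin 1, went from 1841 and 2121 to 751.2, 996.7 and 1025 (-1.12 ± 0.17, adjusted p = 6.54e-10) and from 1852, 2870 and 3330 to 765.2, 1272 and 1712 (-1.1 ± 0.31, adjusted p = 0.00233). The groups of these 3 genes were separate in both backgrounds. HAPLN3, a link protein between hyaluronan and proteoglycans, had 8.13 and 40 against 36.1, 19.3 and 12.4 (-0.12 ± 0.68, adjusted p = 0.914) and 120.2, 36.8 and 72.7 against 67.6, 51.3 and 63.5 (-0.33 ± 0.42, adjusted p = 0.602), and FN1 (fibronectin) and FBLN1 were also called in neither.

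TIMP2 fell in both backgrounds, from 7746 and 7383 to 5848, 5160 and 4279 normalised counts (-0.58 ± 0.15, adjusted p = 0.000624) and from 11145, 9327 and 8756 to 8011, 6232 and 5207 (-0.59 ± 0.2, adjusted p = 0.0171). TIMP1 had 3926 and 4237 against 4470, 3966 and 3259 (-0.08 ± 0.15, adjusted p = 0.728) and 6618, 5742 and 5092 against 6077, 4169 and 4254 (-0.27 ± 0.21, adjusted p = 0.35). MMP14, the membrane-anchored collagenase that activates MMP2, fell in BRCA2-deficient cells, from 722.4, 464.7 and 576.1 to 425, 360.8 and 321.9 without overlap (-0.67 ± 0.22, adjusted p = 0.0123). In BRCA2-proficient cells MMP14 had 460.9 and 545.3 against 710.4, 706.6 and 434.1, with overlap (0.28 ± 0.22, adjusted p = 0.335), and the difference between backgrounds did not pass (-0.97 ± 0.34, adjusted p = 0.868). Of all 42 genes none was called for a different GSK3i response between backgrounds, beside 0.0345% of all genes. DESeq2 gave 6 of them an unadjusted p under 0.05, and edgeR called 0 and gave 6.

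With GSK3i present, siβ-catenin raised a smaller set that included COL1A1, FBN1 and NID1. In BRCA2-proficient cells 9 genes rose and 3 fell, against 3.18% and 1.92% of all genes. In BRCA2-deficient cells 8 rose and 1 fell, against 2.95% and 2.57%. The GSK3i libraries serving as controls here are those compared with untreated cells above, so the comparisons are not independent. The 5 genes that rose in both backgrounds, 5 of 9 and 5 of 8, were COL1A1, COL6A1, LAMB2, NID1 and FBN1. The matching count over all genes is not given here. Without both BRCA2-proficient libraries numbered 2, 10 rose and 4 fell in BRCA2-proficient cells, against 2.54% and 2.16% of all genes. AGRN and HSPG2 were then lost, and HAPLN3 (1.73 ± 0.46, adjusted p = 0.00543), ADAMTS1 (1.45 ± 0.23, adjusted p = 6.98e-08) and LAMC1 (0.51 ± 0.15, adjusted p = 0.0121) were called higher and COL13A1 lower (-0.85 ± 0.28, adjusted p = 0.0426, against 0 with all libraries). Of the keratin list 1 of 3 tested genes rose in BRCA2-proficient cells, KRT8 (0.85 ± 0.25, adjusted p = 0.0173), and 0 of 4 in BRCA2-deficient cells. Of the fibroblast list 0 of 2 were called in each background, with PDGFRA at 2.38 ± 0.81, adjusted p = 0.0536 in the first and 0.82 ± 0.4, adjusted p = 0.247 in the second. The part of these markers was not tested.

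COL1A1 had 38.4, 34.1 and 39.5 normalised counts with GSK3i and control siRNA in BRCA2-proficient cells, and 134.9, 167.4 and 176.6 with GSK3i and siβ-catenin (2.12 ± 0.28, adjusted p = 2.13e-11). In BRCA2-deficient cells it went from 80.2, 78.7 and 95.7 to 235.1, 292.2 and 356.2 (1.79 ± 0.24, adjusted p = 7.94e-11). FBN1 went from 751.2, 996.7 and 1025 to 1824, 2203 and 2142 (1.18 ± 0.17, adjusted p = 8.04e-09) and from 765.2, 1272 and 1712 to 2659, 4786 and 4206 (1.63 ± 0.32, adjusted p = 2.87e-05). Neither gene had overlapping groups. NID1, nidogen 1, which links laminin to type IV collagen, went from 741.9, 826 and 911.1 to 1489, 1484 and 1774 (0.96 ± 0.15, adjusted p = 1.83e-07) and from 651.8, 957.6 and 1077 to 1266, 1913 and 2406 (1.05 ± 0.28, adjusted p = 0.00568). LAMB2 rose to 2695, 3771 and 3259 (0.85 ± 0.17, adjusted p = 5.41e-05) and to 3455, 5004 and 3928 (0.74 ± 0.2, adjusted p = 0.00568), and COL6A1 to 4104, 5170 and 4147 (0.77 ± 0.18, adjusted p = 0.000752) and to 8101, 9082 and 8820 (0.65 ± 0.14, adjusted p = 0.000148). For these 3 genes too every siβ-catenin library lay above every control siRNA library of the same background. Of all genes tested 26.9% and 23.5% did not overlap in these comparisons, and of the matrix genes 42.9% and 40.5%.

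**Figure D3:**
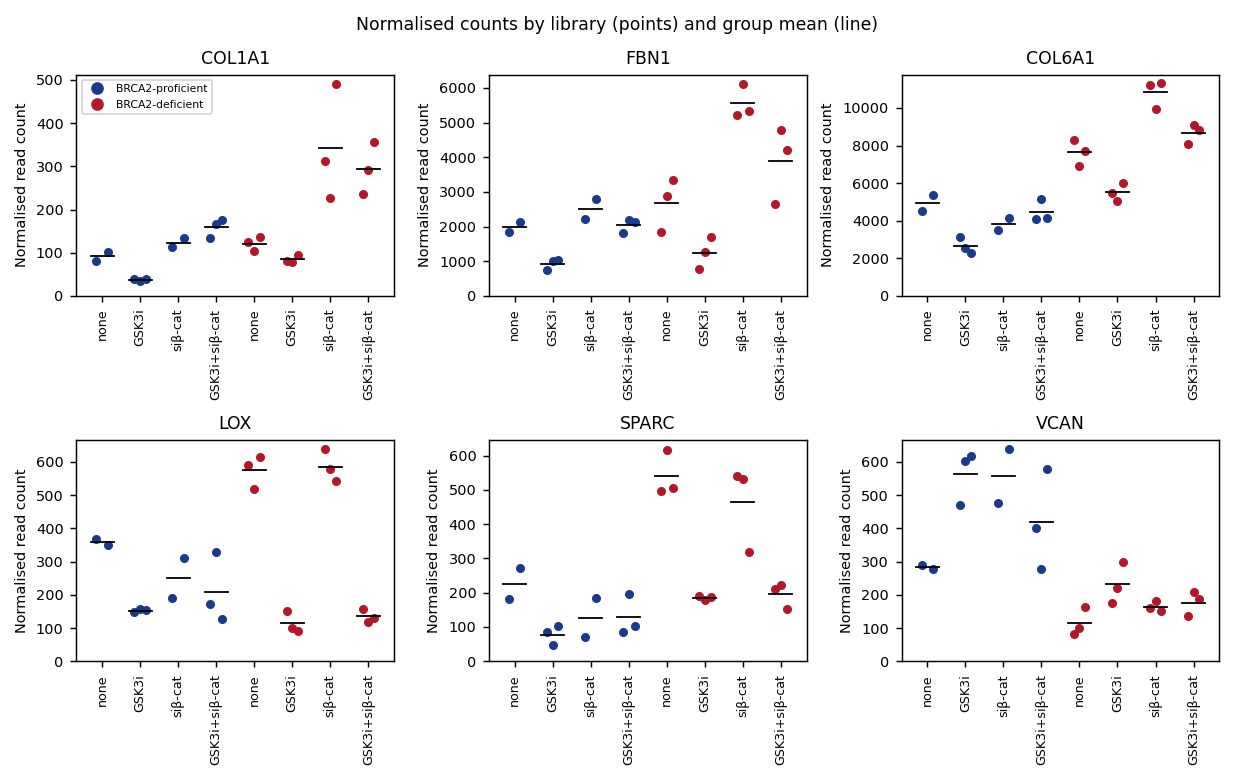
Normalised read counts of COL1A1, FBN1, COL6A1, LOX, SPARC and VCAN in each library (points) of the 8 groups, with group means. COL1A1 is highest in BRCA2-deficient cells with siβ-catenin and no GSK3i (311.8, 225.8 and 489.6), and LOX lies between 90.3 and 158.1 in BRCA2-deficient cells with GSK3i under either siRNA.

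No lysyl oxidase was called for siβ-catenin under GSK3i. LOX had 173.2, 329.1 and 125.6 normalised counts in BRCA2-proficient cells with both treatments (0.49 ± 0.34, adjusted p = 0.462) and 158.1, 118.9 and 131 in BRCA2-deficient cells (0.25 ± 0.27, adjusted p = 0.726). The highest BRCA2-proficient value was that of replicate 2, the library at 0.01 on the response scale. LOXL1 gave 0.43 ± 0.29 and 0.22 ± 0.19, and LOXL2 0.42 ± 0.22 and 0.16 ± 0.16. SPARC had 86.6, 195.4 and 102.8 (0.75 ± 0.39, adjusted p = 0.29) and 210.1, 222.7 and 151.4 (0.07 ± 0.22, adjusted p = 0.945), and its BRCA2-deficient groups overlapped.

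HAPLN3 rose in BRCA2-deficient cells, from 67.6, 51.3 and 63.5 to 225.1, 191.4 and 214.6 normalised counts without overlap (1.79 ± 0.23, adjusted p = 2.57e-12). In BRCA2-proficient cells it had 36.1, 19.3 and 12.4 against 85.6, 32.7 and 61.9 (1.44 ± 0.51, adjusted p = 0.0666), and it was called without both libraries numbered 2, as given above. COL7A1 and ADAMTS1 rose in BRCA2-deficient cells, COL7A1 to 1088, 1358 and 1433 (0.69 ± 0.19, adjusted p = 0.00905) and ADAMTS1 to 708.2, 585.4 and 729.8 (0.72 ± 0.16, adjusted p = 0.00066). PLOD2, the lysine hydroxylase of collagen telopeptides, fell there, from 1204, 1854 and 1295 to 748.3, 953.2 and 493.3 (-1 ± 0.27, adjusted p = 0.00787). In BRCA2-proficient cells FN1 (-0.73 ± 0.17, adjusted p = 0.00112), LAMB1 (-0.56 ± 0.11, adjusted p = 0.000107) and MMP14 (-0.75 ± 0.25, adjusted p = 0.0484) fell. LAMA5 rose in BRCA2-proficient cells, to 1054, 2276 and 1167 (1 ± 0.28, adjusted p = 0.00973). Its rise was 0.56 ± 0.14, adjusted p = 0.00241 without both libraries numbered 2. It gave 0.38 ± 0.26, adjusted p = 0.498 in BRCA2-deficient cells, with 1811, 3124 and 2050. No matrix gene was called for a different siβ-catenin response between backgrounds, beside 0.0057% of all genes, and DESeq2 and edgeR both gave 0 an unadjusted p under 0.05. With the BRCA2-proficient library numbered 2 left out, 0 were called, beside 0.0402% of all genes higher and 0.023% lower.

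Same-numbered libraries deviated together in these comparisons, and the replicate block added calls. In BRCA2-deficient cells it called LAMC1 (0.61, adjusted p = 3.09e-12, against 0.0502 without it), LAMA4 (0.62, adjusted p = 0.0206, against 0.25) and THBS1 (0.52, adjusted p = 0.000647, against 0.126). In BRCA2-proficient cells it called COL6A2 (0.68, adjusted p = 0.00385, against 0.0619). edgeR called 5 genes in BRCA2-proficient cells (COL1A1, LAMB1, LAMB2, NID1 and FBN1) and 5 in BRCA2-deficient cells (COL1A1, COL6A1, FBN1, HAPLN3 and ADAMTS1). Without GSK3i replicate 2, 6 genes were called in the first background and 5 in the second.

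Without GSK3i, siβ-catenin raised 5 matrix genes and lowered 1 in BRCA2-deficient cells, against 1.21% and 0.82% of all genes. COL1A1 went from 123.8, 102.9 and 137.1 to 311.8, 225.8 and 489.6 normalised counts without overlap (1.5 ± 0.28, adjusted p = 9.31e-05). Groups did not overlap here for 19.1% of all genes tested and 26.2% of the matrix genes. FBN1 rose to 5208, 6117 and 5342 (1.05 ± 0.22, adjusted p = 0.000361), NID1 from 812.8, 960.7 and 1299 to 1910, 1582 and 2372 (0.93 ± 0.22, adjusted p = 0.00382) and COL6A1 to 11233, 9919 and 11323 (0.51 ± 0.14, adjusted p = 0.0289). LAMC1, the laminin γ1 chain, rose (0.66 ± 0.17, adjusted p = 0.00892), and PLOD2 fell from 852.1, 1320 and 1135 to 570.6, 705.3 and 334.2 (-1.04 ± 0.26, adjusted p = 0.00795). This comparison shares no library with that under GSK3i, and COL1A1, COL6A1, NID1 and FBN1 rose in both, 4 of 5 and 4 of 8. The matching count over all genes is not given here. edgeR called 0 of the 42 here, with 15 at an unadjusted p under 0.05 and 15 in DESeq2. DESeq2 called 3 genes without siβ-catenin replicate 1, and 2 without siβ-catenin replicate 3 or untreated replicate 2. COL1A1 and FBN1 were called whichever single library was left out.

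After siβ-catenin, GSK3i lowered 15 matrix genes in BRCA2-deficient cells and raised 5, against 11.5% and 8.56% of all genes. This comparison shares no library with that under control siRNA, and 13 genes fell in both, 13 of 15 and 13 of 16. The matching count over all genes is not given here. Groups did not overlap for 40.4% of all genes tested and 57.1% of the matrix genes. PDGFRA (-2.01 ± 0.37, adjusted p = 2.47e-06) and PDGFRB (-2.1 ± 0.47, adjusted p = 0.000149) of the fibroblast markers fell too, as did KRT7 (-1.23 ± 0.21, adjusted p = 1.26e-07) and KRT8 (-0.84 ± 0.21, adjusted p = 0.000821), and their part was not tested. LOX went from 638.7, 577.2 and 541.3 to 158.1, 118.9 and 131 normalised counts without overlap (-2.1 ± 0.19, adjusted p = 1.42e-26). The difference from its fall under control siRNA was 0.23 ± 0.28, adjusted p = 1, with a 95% interval of -0.33 to 0.78. SPARC fell from 540.4, 530.9 and 320.1 to 210.1, 222.7 and 151.4 (-1.25 ± 0.24, adjusted p = 5.87e-06), COL13A1 from 296.7, 278.9 and 192.2 to 91, 74.6 and 49 (-1.84 ± 0.27, adjusted p = 8.65e-10) and LAMA5 from 5662, 4672 and 4160 to 1811, 3124 and 2050 (-1.05 ± 0.21, adjusted p = 1.16e-05).

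COL1A1 was not called here (-0.21 ± 0.27, adjusted p = 0.616), with overlapping groups, nor were NID1 (-0.07 ± 0.23, adjusted p = 0.868), LAMB2 (-0.36 ± 0.16, adjusted p = 0.093) and VCAN (0.11 ± 0.22, adjusted p = 0.776). VCAN had 160.5, 180.3 and 151.4 normalised counts without and 135, 207.6 and 186 with GSK3i. COL7A1 (1.32 ± 0.21, adjusted p = 2.73e-08) and ADAMTS1 (1.44 ± 0.27, adjusted p = 2.02e-06) rose, as did LAMB3, TNC and HAPLN3, and FN1 fell (-0.65 ± 0.19, adjusted p = 0.00596). With the replicate block LAMA3 (0.57, adjusted p = 0.00244) and TIMP2 (-0.52, adjusted p = 4.21e-06) were called too. No matrix gene was called in BRCA2-deficient cells for a GSK3i response that depended on siβ-catenin, beside 0.486% of all genes. DESeq2 gave 5 an unadjusted p under 0.05, and edgeR called 0 and gave 6. With the replicate block FN1 (-0.87, adjusted p = 0.0308) and VCAN (-0.95, adjusted p = 0.0498) were called, against 0.465 and 0.548 without it.

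**Figure D4:**
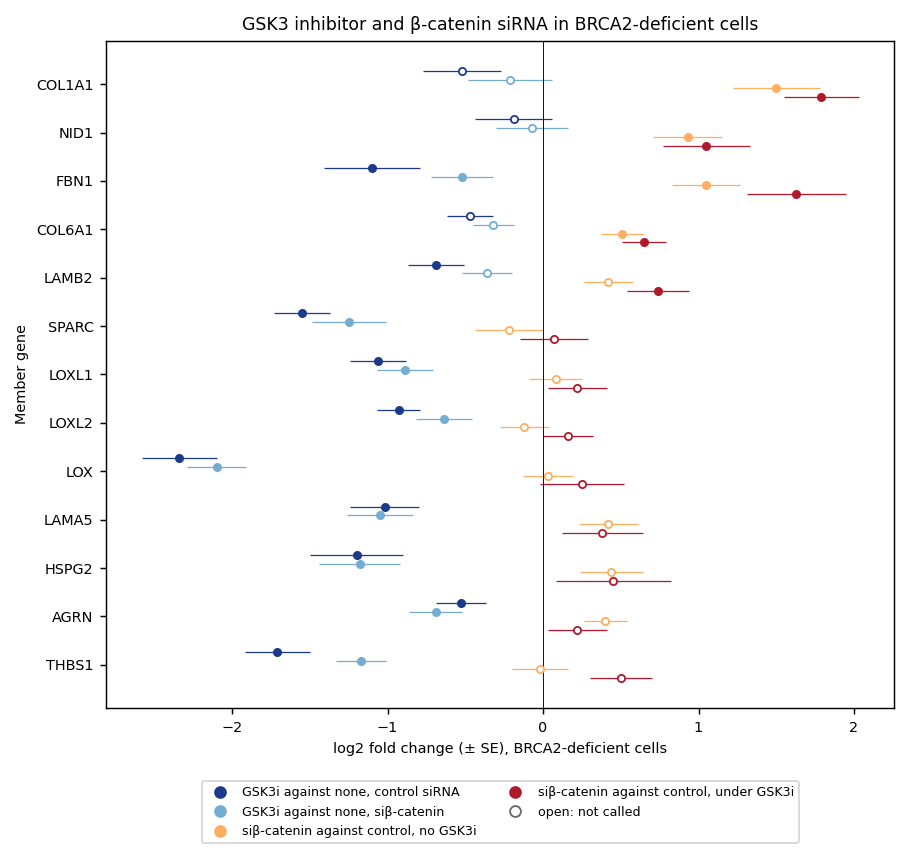
Log2 fold changes (± SE) of matrix genes in BRCA2-deficient cells: GSK3i against none under control siRNA and under siβ-catenin, and siβ-catenin against control siRNA without and with GSK3i; filled points were called. LOX lies at -2.34 and -2.1 for GSK3i and at 0.03 and 0.25 for siβ-catenin, while COL1A1 lies at -0.52 and -0.21 for GSK3i and at 1.5 and 1.79 for siβ-catenin.

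In BRCA2-proficient cells the matching comparisons rest on the libraries that stood apart from their labels. Without GSK3i, siβ-catenin raised 1 gene (VCAN) and lowered 5 (COL13A1, LAMA5, AGRN, LOXL1 and TIMP2), against 1.01% and 1.96% of all genes. Of the fibroblast marker list 1 of 3 fell with them, PDGFRA (-2.23 ± 0.53, adjusted p = 0.00326), and of the keratins 0 of 4; their part was not tested. LOXL1 had 481.6 and 496.7 normalised counts against 1205 and 1016 (-1.19 ± 0.21, adjusted p = 4.15e-06), and COL1A1 had 112.4 and 133.9 (0.41 ± 0.36, adjusted p = 0.629). Without the library numbered 2, 2 rose and 4 fell, against 0.324% and 0.781% of all genes: LAMA5 was lost and THBS1 was called higher. With 3 libraries in a fit the count filter removed no gene, so 49 matrix genes and all 37908 genes entered it. The same comparison with all libraries and no count filter called 6. edgeR called 0, with 13 at an unadjusted p under 0.05. DESeq2 called 15 without siβ-catenin replicate 3 and 0 without untreated replicate 2 or 3, again in fits of 3 libraries in which 1 group had a single library, assumed to vary like the other group.

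GSK3i after siβ-catenin changed 0 of the 42 genes in BRCA2-proficient cells, and 0.0529% of all genes. DESeq2 and edgeR both gave 1 an unadjusted p under 0.05, and 2 were called without replicate 2 of GSK3i with siβ-catenin. Without both libraries numbered 2, 7 were called, ADAMTS1, COL7A1, LAMB3 and TNC higher and COL12A1, LOX and THBS1 lower. They stood against 1.62% of all genes higher and 1.27% lower. That fit sets 2 libraries against 1, which is assumed to vary like the others, and 49 matrix genes and all 37908 genes entered it for the same reason. With all libraries and no count filter 0 were called. For a GSK3i response that depended on siβ-catenin, 10 genes were called higher and 1 lower, against 3.87% and 3.77% of all genes. Without both libraries numbered 2 the counts were 7 and 2, against 1.88% and 1.63% of all genes, with siβ-catenin without GSK3i resting on 1 library, the one at 0.3 on the response scale. edgeR called 0, with 19 at an unadjusted p under 0.05.

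BRCA2-deficient cells had higher levels of several matrix genes under each treatment. The 4 comparisons of BRCA2-deficient with BRCA2-proficient cells share no library with one another. Untreated, 9 genes were higher and 2 lower, against 2.77% and 4.14% of all genes. Under GSK3i 13 were higher and 3 lower (3.76% and 3.05% of all genes), and under GSK3i with siβ-catenin 10 and 2 (3.38% and 4.36%). With siβ-catenin alone 26 were higher and 4 lower (13.6% and 13.8%), where the BRCA2-proficient libraries stood at 0.74 and 0.3 on the GSK3i response scale. Without both libraries numbered 2 these counts were 24 and 3 with siβ-catenin (9.07% and 9.32% of all genes), where the lone BRCA2-proficient library, at 0.3, is assumed to vary like the others. Under both treatments they were 13 and 3 (4.62% and 4.57%). With siβ-catenin alone 2 of 3 tested fibroblast markers were also higher, PDGFRA (2.17 ± 0.52, adjusted p = 0.000279) and PDGFRB (1.83 ± 0.54, adjusted p = 0.00402), as was 1 of 4 keratin list genes, KRT7 (1.07 ± 0.33, adjusted p = 0.00595). In the other 3 comparisons of BRCA2 status 0 markers of either list were called. Their part in these counts was not tested. COL6A1, COL6A2, COL18A1, P4HA2 and BMP1 were higher in all 4 comparisons, COL1A1, LAMA4, HAPLN3 and SPARC in 3, and VCAN and PLOD2 were lower in all 4. The matching counts over all genes are not given here, so whether such recurrence is particular to matrix genes was not tested.

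**Figure D5:**
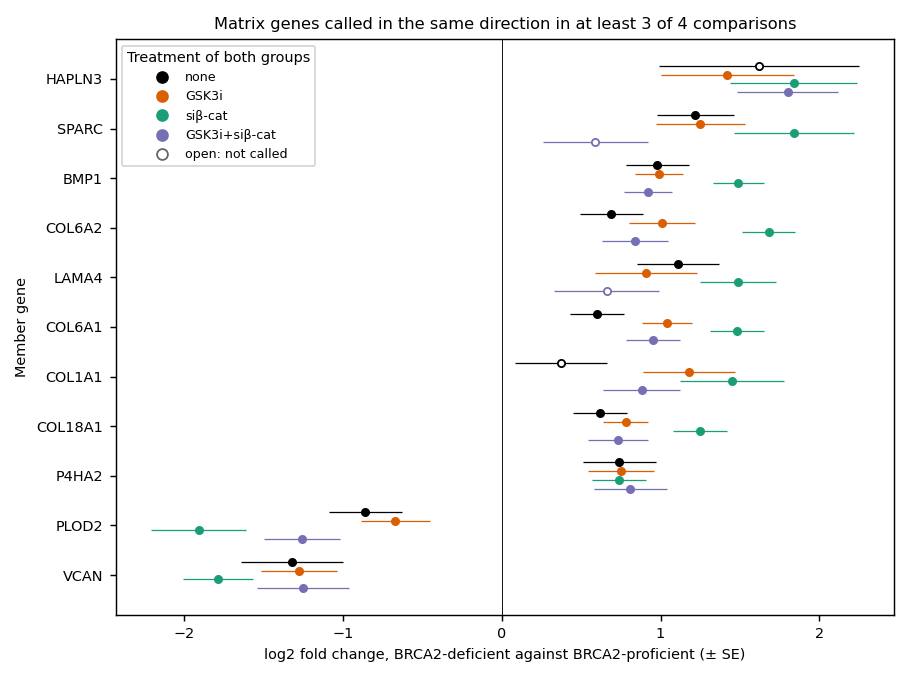
Log2 fold change (± SE) of BRCA2-deficient against BRCA2-proficient cells under each of the 4 treatments for matrix genes called in the same direction in at least 3 of them. VCAN and PLOD2 lie below 0 under each treatment, and BMP1 lies between 0.92 and 1.49.

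COL6A1 had 4540 and 5363 normalised counts in untreated BRCA2-proficient libraries and 8304, 6905 and 7726 in BRCA2-deficient ones (0.6 ± 0.17, adjusted p = 0.00908). Under GSK3i the difference was 1.04 ± 0.16, adjusted p = 1.76e-08, with siβ-catenin 1.48 ± 0.17, adjusted p = 7.8e-17 and with both 0.95 ± 0.17, adjusted p = 1.85e-06. The groups did not overlap in any of the 4. Without overlap were 40% of all genes tested untreated, 27.4% under GSK3i, 56.1% with siβ-catenin and 26% with both. For the matrix genes these shares were 45.2%, 50%, 78.6% and 42.9%. COL6A2 was higher untreated (0.69 ± 0.2, adjusted p = 0.0115) and under GSK3i (1.01 ± 0.21, adjusted p = 9.17e-05). COL18A1, the basement membrane collagen whose end fragment is endostatin, had 4479 and 4725 against 8127, 7091 and 6321 untreated (0.62 ± 0.17, adjusted p = 0.00595) and 4335, 4238 and 3348 against 6821, 7012 and 6705 under GSK3i (0.78 ± 0.14, adjusted p = 5.04e-06). It shares 18.5% of its exon length with SLC19A1 on the other strand.

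BMP1 was higher untreated (0.98 ± 0.2, adjusted p = 9.28e-05), under GSK3i (0.99 ± 0.15, adjusted p = 1.94e-08) and under GSK3i with siβ-catenin (0.92 ± 0.15, adjusted p = 2.24e-07), where its libraries stood at 1217, 1268 and 1184 against 2507, 2289 and 2195. P4HA2, a subunit of the prolyl hydroxylase that stabilises the collagen helix, had 847.5 and 1232 against 1822, 1493 and 1970 untreated (0.74 ± 0.23, adjusted p = 0.02) and differences of 0.74 to 0.81 under the other treatments. SPARC was higher untreated (1.22 ± 0.24, adjusted p = 3.86e-05) and under GSK3i (1.25 ± 0.28, adjusted p = 0.000519). LAMA4, the laminin α4 chain, had 141.6 and 144.7 against 260.6, 288.1 and 390.9 untreated (1.11 ± 0.26, adjusted p = 0.00112). LOX was higher untreated (0.66 ± 0.19, adjusted p = 0.0118) and with siβ-catenin (1.2 ± 0.25, adjusted p = 1.53e-05), and gave -0.43 ± 0.25, adjusted p = 0.328 under GSK3i. MMP1, interstitial collagenase, was higher untreated at low levels, 13.9 and 10.5 against 50, 27.1 and 48.1 (1.76 ± 0.55, adjusted p = 0.022).

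VCAN (chromosome 5, 82767437 to 82878122) had 290.2 and 278.9 normalised counts in untreated BRCA2-proficient libraries and 82.1, 99.6 and 162.7 in BRCA2-deficient ones (-1.32 ± 0.32, adjusted p = 0.00139). Under GSK3i it was again lower in BRCA2-deficient cells (-1.28 ± 0.24, adjusted p = 7.26e-06), as with siβ-catenin (-1.79 ± 0.22, adjusted p = 2.59e-13) and with both (-1.25 ± 0.29, adjusted p = 0.000796). PLOD2 had 1773 and 2160 against 852.1, 1320 and 1135 untreated (-0.86 ± 0.23, adjusted p = 0.00562) and 1867, 2306 and 2751 against 1204, 1854 and 1295 under GSK3i (-0.67 ± 0.22, adjusted p = 0.0321). Neither gene had overlapping groups under any treatment, although the PLOD2 groups came close under GSK3i.

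COL1A1 was not called untreated (0.37 ± 0.29, adjusted p = 0.51) and was higher in BRCA2-deficient cells under GSK3i (1.18 ± 0.29, adjusted p = 0.00179) and under GSK3i with siβ-catenin (0.88 ± 0.24, adjusted p = 0.00707). HAPLN3 was higher under GSK3i without overlap (1.42 ± 0.42, adjusted p = 0.0118), as was LAMA5 (1.22 ± 0.2, adjusted p = 1.5e-07). The replicate block also called COL27A1 (0.68, adjusted p = 0.00273), COL16A1 (0.57, adjusted p = 0.0176) and HSPG2 (0.81, adjusted p = 5.39e-09) under GSK3i. Under both treatments it called LAMA5 (0.68, adjusted p = 0.0011) and TNC (0.68, adjusted p = 0.03) and lost COL7A1 (1.21, adjusted p = 0.131). In the untreated comparison edgeR called SPARC and BMP1. DESeq2 called 0 genes there without untreated BRCA2-proficient replicate 2 and 4 without replicate 3, each time with 1 BRCA2-proficient library left, assumed to vary like the others. Under GSK3i edgeR called 10, and DESeq2 8 without BRCA2-deficient replicate 3 and 9 without BRCA2-proficient replicate 2. Under both treatments edgeR called 6.

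Integrins, the main cell receptors for matrix proteins, counted 7 lower and 1 higher of 16 tested with GSK3i in BRCA2-proficient cells, and 5 lower of 17 in BRCA2-deficient cells (medians -0.65 and -0.39). For this list and those below, the shares of all genes that fell or rose are those given above beside the matrix genes. The laminin receptor chain ITGB4 fell in both (-1.99 ± 0.14, adjusted p = 1.62e-40 and -1.56 ± 0.17, adjusted p = 8.35e-17). The collagen receptor chain ITGA2 rose in BRCA2-proficient cells (1.06 ± 0.15, adjusted p = 1.58e-10), gave 0.55 ± 0.37, adjusted p = 0.278 in BRCA2-deficient cells, and fell with siβ-catenin under GSK3i in both (-1.41 ± 0.16, adjusted p = 6.82e-15 and -1.27 ± 0.27, adjusted p = 0.000161). Of 8 other matrix receptors, 4 fell in each background, DDR1, a collagen-binding receptor tyrosine kinase, among them (-0.89 ± 0.14, adjusted p = 2.04e-09 and -0.67 ± 0.16, adjusted p = 0.000183).

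Of matrix proteins outside the 50 genes, 17 of 35 tested fell and 2 rose with GSK3i in BRCA2-proficient cells, and 11 fell and 2 rose in BRCA2-deficient cells. EFEMP2, fibulin 4, fell in both (-1.9 ± 0.3, adjusted p = 3.33e-09 and -1.78 ± 0.21, adjusted p = 6.94e-15). With siβ-catenin under GSK3i, 8 of 34 rose in the first background and 11 of 35 in the second, and 1 fell in each. MATN2, matrilin 2, rose in both (1.24 ± 0.22, adjusted p = 5.88e-06 and 0.88 ± 0.16, adjusted p = 8.71e-06).

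Other matrix proteases and inhibitors counted 8 lower and 3 higher of 20 with GSK3i in BRCA2-proficient cells, and 9 and 2 of 21 in BRCA2-deficient cells. PLAU, a plasminogen activator, fell in both (-1.35 ± 0.13, adjusted p = 5.82e-22 and -1.92 ± 0.18, adjusted p = 6.41e-24). Genes for collagen folding and secretion counted 2 higher and 2 lower of 20, and 1 and 3 of 20, close to or below the shares of all genes. LOXL4, a further lysyl oxidase counted in that list, fell in both (-3.09 ± 0.49, adjusted p = 8e-09 and -2.78 ± 0.38, adjusted p = 1.76e-11).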

How the data were processed

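Poly(A) RNA from 22 H1299 libraries was sequenced after a strand-marking preparation. According to the submitters' processing notes and methods, the authors aligned reads to hg19 (GRCh37) with HISAT2 2.0.4, removed duplicates with Picard 1.9.2, and deposited raw counts per gene from featureCounts 1.5.0. SAMtools 1.4 is also named. The strand setting of the counting was not given in the sources used here, so overlapping genes on opposite strands may share reads. Removing duplicates lowers the counts of abundant genes most.

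Counts were used as deposited. Library totals were 18938266 to 29280122 counts, and low counts limit the precision of scarce genes. Each comparison was fitted on its own groups with DESeq2 1.42.0 (R 4.3.3, Wald test, Benjamini-Hochberg adjustment over all genes tested). Genes with under 10 counts in more than 3 libraries of the comparison were left out, and interaction fits kept genes with at least 10 counts in 3 libraries or more. A gene was called at an adjusted p below 0.05 and an absolute log2 fold change above 0.5. Alternatives were edgeR 4.0.16 quasi-likelihood with TMM, DESeq2 with TMM factors, no filter, a replicate block, 1 model over all groups, and leaving out each library. Leaving out both BRCA2-proficient siβ-catenin libraries numbered 2 was added after the data were seen. Tables were handled in Python 3.11.15 with pandas 2.3.3. Each fit was also run on simulated counts in which 200 genes truly differed. Pairwise comparisons recovered 117 to 187 of these, with 19 to 46 false calls. Interaction fits recovered 94 to 118, with 23 to 34 false calls. In each fit, false calls took a larger share of the calls than the 0.05 threshold aims for. Many true interactions were missed, so the lack of an interaction call does not show that responses were equal.

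Values in every library were given for up to 4 genes of each class with a mean of at least 50 normalised counts and the lowest adjusted p in the first 5 comparisons, and for genes called in an interaction. NID1, PLOD2, COL18A1, P4HA2, LAMA4, LAMC1, LAMB1, FN1, TNC and MMP1 were added after their values were seen. The members and lists were chosen with earlier results of these data known. Same-numbered libraries share a replicate number in the labels. The correlation of their deviations from group means was above 0.1 for each pair in the 7 comparisons with 3 pairs (0.156 to 0.851). The counts, SE and adjusted p given first nevertheless come from fits without this pairing. For these 7 comparisons the calls that the replicate block changed are given beside the results. In the other comparisons, with 2 pairs or fewer, it ran from -0.424 to 0.245 and the number was not taken to pair them. Among these, both pairs were above 0.1 for GSK3i in BRCA2-proficient cells (0.11 and 0.111). The same held for BRCA2 status untreated (0.168 and 0.245).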

Additional observations from a re-analysis of the deposited data

Results flagged for a closer look

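In BRCA2-proficient cells the change with GSK3i differed between siβ-catenin and control siRNA for 11 matrix genes by the DESeq2 interaction test. On the log2 scale the difference was 1.7 for COL1A1, 1.14 for COL6A1, 1.23 for COL6A2, 2.15 for LAMA5, 1.23 for LAMB2, 1.43 for HSPG2, 1.42 for AGRN, 0.83 for FBN1, 1.61 for LOXL1, 0.73 for BMP1 and -1.38 for VCAN. These values rest on the libraries that stood apart from their labels. Without both libraries numbered 2, COL1A1 (1.54), COL6A1 (0.9), COL6A2 (0.92), LAMA5 (1.34), LAMB2 (1.02), AGRN (0.94), LOXL1 (1.21) and VCAN (-1.35) were still called, FN1 (-0.76) was added, and HSPG2 (0.65), FBN1 (0.62) and BMP1 (0.63) were not called. That fit leaves siβ-catenin without GSK3i with 1 library, replicate 3, itself at 0.3 on the response scale and assumed to vary like the others. edgeR called 0 of the 42, with 19 at an unadjusted p under 0.05. DESeq2 called 6 without GSK3i replicate 2, 3 without siβ-catenin replicate 2, 5 without untreated replicate 2 and 0 without untreated replicate 3. In the last 3 of these fits 1 group had a single library, again assumed to vary like the others.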

How the results depend on the processing

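Direction was checked for the genes picked by class or interaction as described above, and none of their calls changed direction under any alternative run. It was not checked for the genes added later, such as NID1 and PLOD2, or for the remaining matrix genes. With edgeR the number of matrix genes called went from 12 to 5 for the effect of siβ-catenin in GSK3i-treated BRCA2-proficient cells and from 9 to 5 in BRCA2-deficient ones, from 6 to 0 without GSK3i in either background, from 11 to 2 for BRCA2 status untreated, from 16 to 10 under GSK3i, from 12 to 6 under both treatments, and from 11 to 0 for the interaction of GSK3i and siβ-catenin in BRCA2-proficient cells. One model over all groups called 3 for siβ-catenin without GSK3i in BRCA2-proficient cells. The replicate block called 1 (LOX) for BRCA2 status by GSK3i and 2 (FN1 and VCAN) for GSK3i by siβ-catenin in BRCA2-deficient cells. Without both libraries numbered 2, 7 were called for GSK3i after siβ-catenin in BRCA2-proficient cells, in a fit of 3 libraries that tested 49 matrix genes rather than 42 since its filter removed none. The cause of these shifts was not tested. TMM factors and the unfiltered table left each count within 1.5 times.

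Leaving out 1 library at a time gave 19 to 21 and 13 to 20 genes for GSK3i in BRCA2-proficient and BRCA2-deficient cells, 6 to 14 and 5 to 12 for siβ-catenin under GSK3i, 0 to 15 and 2 to 9 without GSK3i, and 0 to 2 and 14 to 20 for GSK3i after siβ-catenin. For BRCA2 status it gave 0 to 13 untreated, 8 to 20 under GSK3i, 23 to 31 with siβ-catenin and 9 to 16 under both. A BRCA2-proficient group without GSK3i was left with 1 library in some of these fits, assumed to vary like the others. For GSK3i in BRCA2-deficient cells 13 of 19 stayed called, or went untested, whichever library was left out. In BRCA2-proficient cells COL1A1, COL5A2, COL27A1, COL7A1, COL12A1, LAMA3, LAMA4, NID1, BMP1, ADAMTS1 and TIMP2 did not. The numbers were 6 of 12 and 4 of 9 for siβ-catenin under GSK3i. They were 13 of 20 for GSK3i after siβ-catenin in BRCA2-deficient cells, and 8 of 16 for BRCA2 status under GSK3i. The interactions gave 0 to 1 for BRCA2 status by GSK3i (1 without BRCA2-deficient GSK3i replicate 1), 0 to 0 for BRCA2 status by siβ-catenin, and 0 to 15 and 0 to 1 for GSK3i by siβ-catenin in BRCA2-proficient and BRCA2-deficient cells (the 1 again without BRCA2-deficient GSK3i replicate 1). Where the number did not pair the libraries, the replicate block called 20 genes for GSK3i in BRCA2-proficient cells, 12 for BRCA2 status untreated, 21 with siβ-catenin, 5 for siβ-catenin without GSK3i and 0 for GSK3i after it in BRCA2-proficient cells. For GSK3i in BRCA2-proficient cells it lost COL1A1, COL5A2, COL12A1, LAMA3, LAMA4 (adjusted p = 0.0677) and ADAMTS1 (adjusted p = 0.0825) and added FBLN1. For BRCA2 status untreated it lost LOX (adjusted p = 0.0717) and added LAMA3, HSPG2 and FBN1. With siβ-catenin it lost COL13A1, LAMB3, FN1, LOXL2, P4HA2, PLOD1, ADAMTS1, TIMP1 and TIMP2. VCAN was lost for siβ-catenin without GSK3i in BRCA2-proficient cells. Genes without an adjusted p aside, it changed no call beyond those given beside the results and these.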
